A study of Homo sapiens with 8 samples.

Results

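The response of MDA-MB-231 cells to 24 hours at 1% O2 was read across all genes in cells that carried a scrambled short hairpin RNA (label shSC). MDA-MB-231 is a human breast cancer line without estrogen and progesterone receptors. The libraries were taken by their labels, with no measured value, and were 4 of the 8 libraries of the series, 2 of shSC cells at 1% O2 and 2 of shSC cells at 20% O2. The other 4 libraries came from cells labelled with a hairpin against CHD4 (shCHD4) at the same O2 levels, entered the estimate of the spread, and are compared near the end. All cells grew in DMEM with 10% serum, and polyadenylated RNA was sequenced. The sources used here do not say whether the hairpin cells were a clone or a pool, nor whether replicates were separate cultures. P-values therefore rest on the scatter of these libraries alone, and that scatter may be technical.

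The 8 libraries held 24947627 to 31903585 reads assigned to genes. Values are normalised read counts, that is, reads scaled by a single factor per library and left uncorrected for gene length, so levels are compared between O2 groups. Where genes are ranked by their reads, long transcripts weigh more, and the ranking is no order of expression. CHD4, the gene aimed at by the other hairpin, read 298.9 and 298.2 at 20% O2 and 279.7 and 278.2 at 1% O2 in shSC cells (log2 difference -0.098, 95% interval -0.19 to -0.010, limma adjusted p = 0.0760, and 0.0105 with quantile normalization). All 9 markers of the line, VIM and EGFR among them, were above the limit for testing, a mean of 1 over the 8 libraries. ESR1 and PGR, the receptor genes that the line lacks, had at most 5 reads in an O2 group. They belong to a list of 10 luminal and receptor markers, of which 5 were above the limit for testing. Of those 5, 1 rose and 2 fell at 1% O2. Of 12 markers of stromal, endothelial and immune cells 10 were in the table and together took at most 0.000565% of the reads of a shSC library. In bulk RNA, fewer cells with a transcript and less of it per cell cannot be told apart.

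Cells read oxygen through enzymes that need it as a substrate. The EGLN prolyl hydroxylases mark the alpha subunits of the hypoxia-inducible factors (HIFs) for degradation by the VHL ubiquitin ligase. At low oxygen the alpha subunits persist, pair with ARNT, and bind a short DNA core, ACGTG or GCGTG, near genes of glucose use, pH control, blood vessel growth and collagen assembly. HIF activity is known in breast cancer for its part in invasion and spread.

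At 1% O2 a small set of genes rose many-fold, and many more moved by much less. Of 12645 genes tested 2197 rose (17.4%) and 2259 fell (17.9%) at a false discovery rate of 0.05. The median fold was 1.24 for the genes that rose and 1.21 for those that fell. Under 1.25-fold lay 1155 of the genes that rose and 1453 of those that fell. Rises of 2-fold or more numbered 106 (0.838% of the genes tested), 17 of them 4-fold or more. Falls of 2-fold or more numbered 13 (0.103%), 1 of them 4-fold or more. The count of large falls depended on the tool: edgeR on the recovered reads put 29 genes at 2-fold or more lower, DESeq2 put 27 there and a pseudocount of 0.1 put 26 there. Falls of any size numbered 1516 with DESeq2. Without shSC 1% O2 replicate 1 the count of genes that fell was 1387. The values of the 2 groups did not overlap in 8278 genes, 65.5% of those tested, so a gap between the groups is common among all genes and is not by itself a result.

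**Figure D1:**
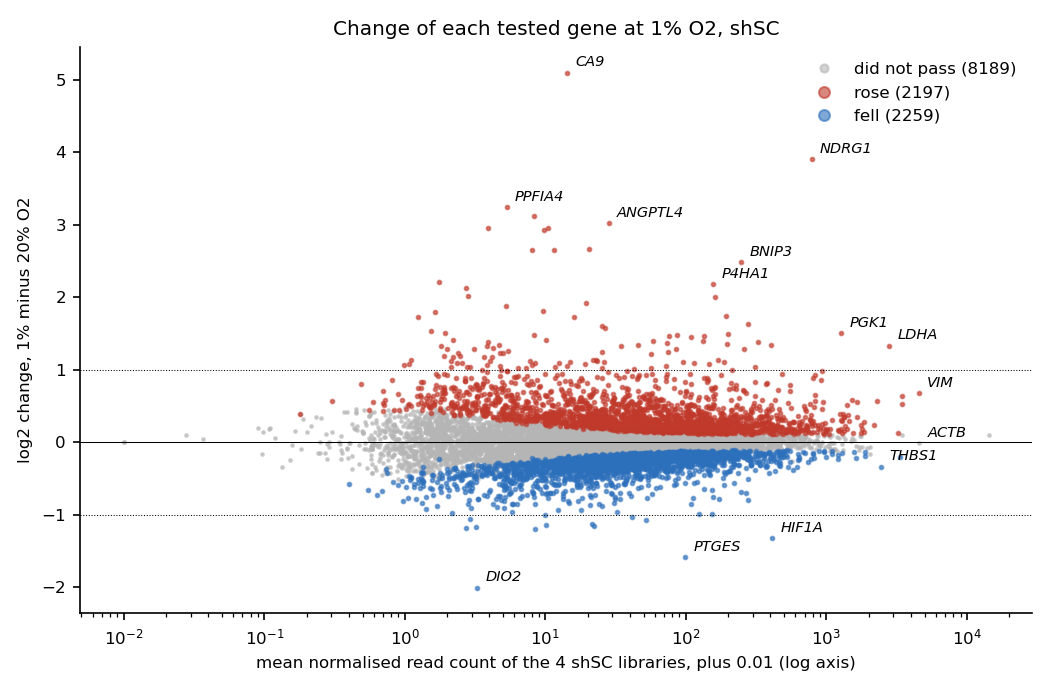
Each point is a tested gene, placed by its mean normalised read count over the 4 shSC libraries (x, log axis) and its log2 change at 1% against 20% O2 (y), red where it rose, blue where it fell and grey where it did not pass. Dotted lines mark 2-fold, and the 106 rises past them reach further than the 13 falls.

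CA9 had the largest fold. This membrane carbonic anhydrase, which helps to set the pH outside the cell, read 0.207 and 0.483 at 20% O2 and 27.0 and 29.0 at 1% O2, from 18 and 1617 reads in the 2 groups. It went from near the lower limit of these libraries to a plain signal (34.1-fold on the log2(value + 0.5) scale, 95% interval of the log2 change 4.73 to 5.45, limma adjusted p = 1.15e-13). The added 0.5 makes the fold of so low a gene too small. NDRG1, a stress-response gene long used as a hypoxia marker, was already abundant at 20% O2 (97.2 and 98.2) and reached 1449 and 1491. Its rise (log2 3.90, 95% interval 3.82 to 3.99) had the narrower interval, with 4993 and 84931 reads in the 2 groups.

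Genes from very different corners of cell biology followed. PPFIA4, a scaffold protein of the liprin family, read 0.455 and 0.780 at 20% O2 and 9.22 and 10.8 at 1% O2. C10orf10, now named DEPP1, read 1.95 and 0.854 against 16.4 and 14.2. Its 20% O2 replicates lay far apart, but both 1% O2 replicates lay well above them (8.65-fold). ANGPTL4, which blocks lipoprotein lipase outside the cell, read 6.54 and 5.09 against 46.9 and 54.1. MIR210HG, the long noncoding host of a hypoxia-induced microRNA, read 0.414 and 0.594 against 6.33 and 8.27. SPAG4, a protein of the nuclear envelope, and EGLN3, an oxygen sensor, rose 7.72-fold and 7.60-fold. TMEM45A, FAM115C and DNAH11, an axonemal dynein, rose 6.31-fold, 6.29-fold and 6.26-fold.

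Further down the same ranking stood genes with plain metabolic roles. BNIP3, which tags mitochondria for removal, read 72.7 and 75.9 at 20% O2 and 394.5 and 440.5 at 1% O2. P4HA1, a catalytic subunit of collagen prolyl hydroxylase, read 53.8 and 58.3 against 251.5 and 258.8. LOX, which crosslinks collagen, read 61.8 and 66.0 against 249.6 and 265.6. In these 3 genes the gap between the groups was many times the gap between replicates. The other genes at 4-fold or more were ALDOC, a glycolytic aldolase (4.62-fold), RIMKLA, which joins glutamate to N-acetylaspartate (4.35-fold), and LOC154761 (4.05-fold). The rest of the 30 largest rises lay between 2.83-fold and 3.80-fold. They were PFKFB4 (3.80-fold), ESM1, a proteoglycan best known from endothelium (3.68-fold), the creatine transporter SLC6A8 (3.51-fold), the lipoxygenase ALOXE3 (3.47-fold), IGFBP3, which binds insulin-like growth factors (3.34-fold), and MALL (3.31-fold). The nuclear receptor RORA (3.30-fold), the mitophagy receptor BNIP3L (3.11-fold), DHRS2 (3.05-fold), RASSF4 (2.98-fold), RNF122 (2.88-fold), PGK1 (2.85-fold) and FKBP9L (2.83-fold) completed them. FAM115C and LOC154761 lie next to each other among the tested genes and FKBP9L resembles FKBP9, so reads of near copies could be split between them and their values are uncertain.

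**Figure D2:**
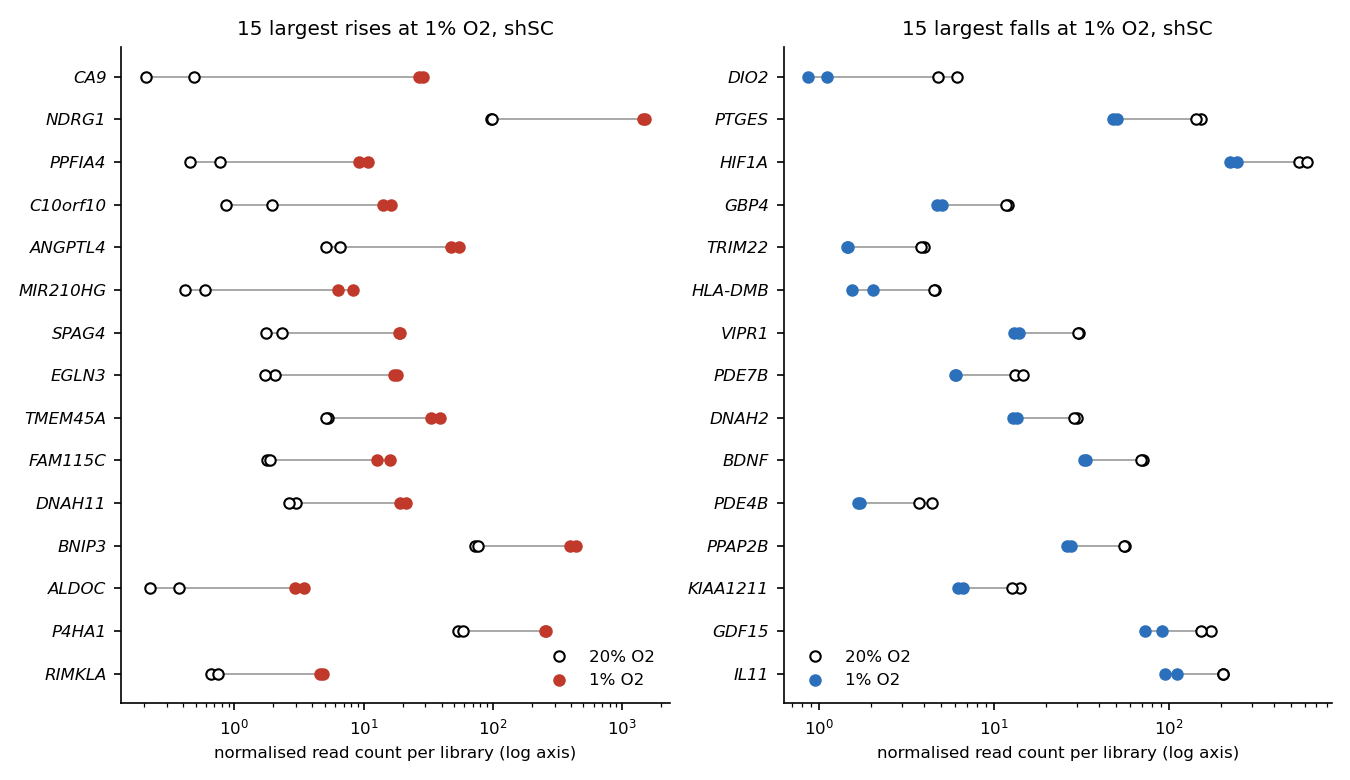
Normalised read counts (x, log axis) of the 15 genes with the largest rises (left) and falls (right) in each of the 4 shSC libraries, open circles at 20% O2 and filled circles at 1% O2, with a line over the range of the 4. Filled circles lie to the right in the rises and to the left in the falls. Genes whose groups overlapped were left out of the ranking, so the gap between open and filled circles was set by that choice.

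The stretch of DNA before these genes was read for both forms of the HIF core. Only the windows that hold the ACGTG form are shown, so that the letters can be set beside the rises. RefSeq promoters (GRCh38.p14) could be matched for 24 of the 30 largest rises, and the 250 bases before each start site were searched for ACGTG and GCGTG on both strands. A run of CACGTG counts on each strand. At least 1 ACGTG was found in 11 of the 24 (45.8%), in 25 of 80 matched genes raised 2-fold or more (31.3%), in 24.5% of genes that fell and in 24.0% of the 10049 matched genes tested. GCGTG went the other way. It was in 10 of the 24 (41.7%), in 28 of the 80 (35.0%) and in 46.3% of all matched genes, and either form was in 40 of the 80 and in 58.3% of all. DNAH11, PFKFB4, IGFBP3 and RASSF4 held GCGTG without ACGTG, and their windows are not shown. The 11 windows with ACGTG are shown around the match nearest to the start site, with up to 18 bases on each side, on the strand of the gene. Capitals mark ACGTG or its reverse complement CACGT. They are reference sequence of another build than the table's, and no binding was measured.
CA9, chr9:35673892-35673927, plus strand: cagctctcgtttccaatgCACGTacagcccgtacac
PPFIA4, chr1:203026355-203026395, plus strand: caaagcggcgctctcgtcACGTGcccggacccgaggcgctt
ANGPTL4, chr19:8363905-8363943, plus strand: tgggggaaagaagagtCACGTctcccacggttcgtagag
MIR210HG, chr11:568605-568645, minus strand: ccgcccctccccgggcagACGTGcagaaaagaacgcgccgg
BNIP3, chr10:131982034-131982074, minus strand: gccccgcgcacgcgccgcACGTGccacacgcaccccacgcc
ALDOC, chr17:28576901-28576941, minus strand: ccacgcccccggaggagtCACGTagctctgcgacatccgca
P4HA1, chr10:73096930-73096970, minus strand: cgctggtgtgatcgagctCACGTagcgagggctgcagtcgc
RIMKLA, chr1:42380542-42380566, plus strand: gcCACGTccaccgggtgtccggggc
LOX, chr5:122078279-122078319, minus strand: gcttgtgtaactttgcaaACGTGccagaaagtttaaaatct
ESM1, chr5:54985594-54985629, minus strand: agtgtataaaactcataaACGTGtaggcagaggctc
PGK1, chrX:78104047-78104087, plus strand: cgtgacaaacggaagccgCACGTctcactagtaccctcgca

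The matches lay at differing distances, with the nearest beginning 18 bases before the start site in CA9 and in ESM1, 28 in ALDOC and 248 in RIMKLA. ALDOC held 3 matches and LOX 4 within the 250 bases. Large rises were also seen with no ACGTG in that window: EGLN3, C10orf10, TMEM45A and FAM115C had 0 matches of either form. Among genes with a mean of 10 or more at 20% O2 ACGTG was in 14 of 33 matched genes raised 2-fold or more (42.4%) and in 1977 of 7894 of all matched genes. Below a mean of 10 it was in 11 of 47 raised genes (23.4%) and in 438 of 2155 of all (20.3%). A match is a description of the letters, and its absence says only that they are not in this window.

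Among the oxygen sensors and HIF subunits a few genes changed, in both directions. EGLN3 read 2.07 and 1.71 at 20% O2 and 18.1 and 17.2 at 1% O2, and EGLN1, the main prolyl hydroxylase of most cells, read 112.8 and 124.9 against 194.1 and 211.2. EGLN2 differed by -0.16 (95% interval -0.27 to -0.046). Its call did not hold in the 4 shSC libraries alone (limma adjusted p = 0.0608) or without a variance trend (limma adjusted p = 0.0632). Nor did it hold with DESeq2 on the recovered reads (DESeq2 adjusted p = 0.0863). It was also lost without shSC 20% O2 replicate 1, shSC 1% O2 replicate 1 or shSC 1% O2 replicate 2 (log2 -0.10, -0.14 and -0.18). HIF1A, which encodes HIF-1 alpha, read 558.6 and 618.4 at 20% O2 and 246.3 and 224.7 at 1% O2, and was 2.50-fold lower. EPAS1, which encodes HIF-2 alpha, read 269.9 and 271.2 against 213.5 and 191.2 (log2 -0.42, limma adjusted p = 5.18e-06). ARNT, their partner, differed by -0.024 (95% interval -0.14 to 0.091, limma adjusted p = 0.767), while its paralog ARNT2 fell by 0.53. ANKRD37, an ankyrin-repeat gene, rose by 1.47. Of 20 tested genes of this list 4 rose and 4 fell, shares near the 17.4% and 17.9% of all genes tested, and VHL differed by -0.0084 with overlapping groups. HIF1A has antisense transcripts, and no source used here says if strand was used in the counting, so reads of both strands cannot be told apart. HIF1A protein, which is set by degradation, was not measured.

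Glycolysis rose along almost its whole length. Of 25 tested genes 21 rose and 3 fell, with a median log2 change of 0.79 against -0.011 for all genes tested, and 6 rose 2-fold or more. The pathway's genes together took 1.24% and 1.19% of reads at 20% O2 and 1.92% and 2.03% at 1% O2. SLC2A1, a glucose importer, read 576.7 and 557.9 against 1061 and 1099. HK2, which traps glucose as a phosphate, read 203.9 and 200.1 against 425.1 and 406.1. PGK1, which makes the pathway's early ATP, read 662.3 and 655.4 against 1811 and 1943. LDHA, which turns pyruvate into lactate, read 1588 and 1570 against 3872 and 4084. SLC16A3, which carries lactate out of the cell, rose from a mean of 271.8 to 477.1.

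Family members of the same enzyme often parted. LDHA rose by 1.33 and LDHB, the form that favours the reverse reaction, fell by 0.32 (524.0 and 516.7 against 421.5 and 411.8). PFKL and PFKP rose by 0.87 and 0.42 and the muscle-type phosphofructokinase PFKM fell by 0.27. PFKFB4 and PFKFB3, which make the activator of phosphofructokinase, rose by 1.92 and 0.88, and PFKFB2 fell by 0.36. In pairs where both rose, the member with the larger change was ALDOC over ALDOA (2.21 and 0.98), ENO2 over ENO1 (1.46 and 0.57) and HK2 over HK1 (1.04 and 0.41). The intervals of the members did not overlap in any of these 6 sets between the highest and the lowest member, though the differences themselves were not tested. At the next step the PDK kinases, which shut pyruvate out of mitochondria, split too. PDK1 rose by 1.32 (19.8 and 19.4 against 46.7 and 52.9) and PDK3 by 0.45, and PDK2 fell by 0.34. PDHA1 and DLAT of the pyruvate dehydrogenase complex fell by 0.25 and 0.33.

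**Figure D3:**
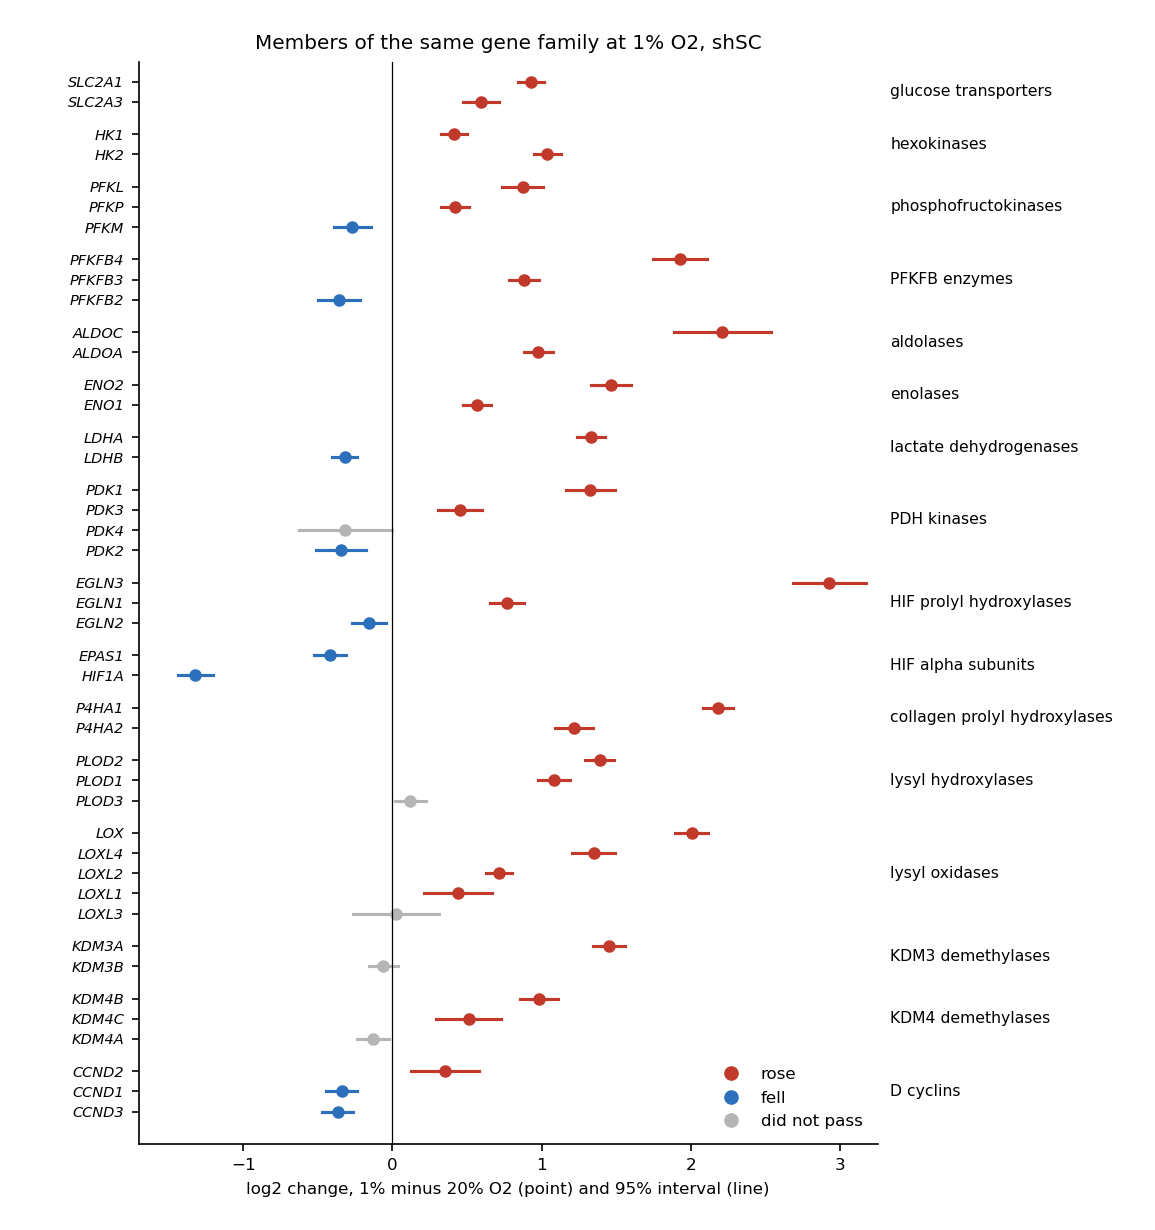
Log2 change at 1% against 20% O2 (x) of members of 16 gene families, with the 95% interval as a line, red where a gene rose, blue where it fell and grey where it did not pass. LDHB, PFKM, PFKFB2, PDK2, CCND1 and CCND3 lie to the left of zero while a relative in the same family lies to the right.

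Glycogen genes, for its making and its breakdown, rose in part. Of 15 tested 10 rose and 0 fell, with a median of 0.23. The branching enzyme GBE1 read a mean of 122.4 at 20% O2 and 233.6 at 1% O2, PGM1, which joins glycogen to glycolysis, 101.1 and 181.0, and the synthase GYS1 44.4 and 65.8. PPP1R3C, which brings a phosphatase to glycogen, rose by 1.06. PYGL, a phosphorylase that breaks glycogen down, rose by 0.34, while PYGB, the member with the most reads, differed by -0.0094 (95% interval -0.095 to 0.076). Among genes of pH control, CA12, another membrane carbonic anhydrase, rose by 0.50, while the bicarbonate transporter SLC4A4 read 6.87 and 8.80 against 3.72 and 3.76 and fell by 0.97.

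The enzymes that finish collagen rose together. Of 14 tested genes 10 rose and 0 fell, with a median of 0.58, and 6 rose 2-fold or more. Beside P4HA1 and LOX these were P4HA2 (log2 1.21), the lysyl hydroxylases PLOD2 (174.5 and 186.6 against 466.5 and 479.4) and PLOD1 (1.08), and the lysyl oxidase LOXL4 (1.35). LOXL3 did not pass (0.023), and PLOD3 passed only without shSC 20% O2 replicate 1 (0.12, limma adjusted p = 0.0182 without it). The matrix itself and its enzymes were more mixed: 22 of 36 rose and 4 fell, with a median of 0.22. PLAT, the tissue plasminogen activator, read 236.7 and 222.1 against 580.3 and 583.9, and MMP1, a collagenase, 103.5 and 106.3 against 326.3 and 267.6. The laminin chain LAMB3 rose by 0.86 and the laminin-binding integrin ITGB4 by 1.37. THBS1, the secreted thrombospondin, read 2739 and 2735 against 2140 and 2194 and fell by 0.34, with the largest loss of normalised reads of any gene that fell.

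Secreted signals for vessels and growth rose in 12 of 14 tested members, with 0 falls and a median of 0.53. IGFBP3 read 88.9 and 89.4 at 20% O2 and 298.4 and 299.6 at 1% O2. VEGFA, the central vessel growth factor, read 666.5 and 666.3 against 983.0 and 992.8, a 1.48-fold rise. STC1, a glycoprotein hormone, rose by 1.36. TGFA, a ligand of the EGF receptor, read 105.4 and 107.3 against 233.7 and 232.4. VEGFA therefore changed by less than ANGPTL4 and IGFBP3 in these libraries, and its interval (0.48 to 0.65) lay below theirs. STC2 and INHBA did not pass.

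Among oxygen-dependent chromatin enzymes, which share the chemistry of the EGLN proteins, 8 of 20 rose (40%) and 1 fell (5%). Among all genes tested 17.4% rose and 17.9% fell. KDM3A, a histone H3 lysine 9 demethylase, read 59.2 and 57.2 against 155.1 and 165.0, and KDM4B 25.1 and 26.1 against 49.9 and 52.0. Their relatives KDM3B and KDM4A differed by -0.062 and -0.13 without passing, though KDM4A passed as lower with quantile normalization (limma adjusted p = 0.0386). Of 14 genes of mitophagy and autophagy 7 rose (50%) and 0 fell. BNIP3L, the relative of BNIP3, read 127.1 and 142.2 against 411.0 and 426.3, FAM162A rose by 1.25 and the autophagy kinase ULK1 by 0.51. MXI1, which competes with MYC for its partner MAX, rose by 0.93, and BHLHE40, a repressor in the circadian clock, by 1.46. DDIT4, an inhibitor of the growth kinase mTORC1 that is known to rise at low oxygen, read 604.5 and 567.2 against 666.8 and 716.1, a rise of 1.18-fold. Its relative DDIT4L rose by 1.41. Genes that restrain mTORC1 did not move together: of 11 tested 4 rose, 2 fell and 5 did not pass. The lowest of them was at -0.74.

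Ranked by normalised reads gained in place of fold, genes with many reads came first, among them NDRG1 and PGK1 of the 30 largest folds. LDHA gained 2399 normalised reads and VIM, the mesenchymal filament protein, 2101 (3523 and 3471 against 5410 and 5787). ERRFI1, which restrains the EGF receptor, gained 1514, NDRG1 1373, GAPDH 1248, PGK1 1218 and ENO1 892.6. The 10 genes of largest gain, H1F0 and ALDOA among them, held 18.04% of all reads gained by genes that rose. Of 16 genes often used as references in RNA assays 7 rose and 2 fell. GAPDH read 2887 and 2749 against 3976 and 4156 and was 1.44-fold higher, and PGK1 was 2.85-fold higher. ACTB differed by -0.0078 (95% interval -0.11 to 0.093) and POLR2A by 0.030. With quantile normalization ACTB was among the genes that fell (limma adjusted p = 3.61e-05), 5 of the 16 in all, and without a variance trend 3 rose, so the smaller differences among them depend on the setting.

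Falls were shallower and of other kinds. DIO2, which activates thyroid hormone, read 4.80 and 6.20 at 20% O2 and 1.11 and 0.874 at 1% O2 from 283 and 57 reads. PTGES, which makes prostaglandin E2, read 154.0 and 143.0 against 48.0 and 50.5. These and HIF1A led the falls (4.01-fold, 2.99-fold and 2.50-fold). VIPR1, a receptor for the neuropeptide VIP, read 30.9 and 30.3 against 13.1 and 13.9, and BDNF, a neurotrophin, 71.8 and 69.3 against 33.0 and 33.9. PDE7B and PDE4B, which degrade cyclic AMP, were 2.20-fold and 2.08-fold lower. The cytokine IL11 went from a mean of 203.9 ± 0.974 (SD, n = 2) to 103.2 ± 11.6 (SD, n = 2), and the stress cytokine GDF15 read 174.5 and 153.0 against 92.0 and 73.3. DNAH2 and PPAP2B were 2.18-fold and 2.04-fold lower, and KIAA1211 read 14.2 and 12.8 against 6.72 and 6.28. MMP16, ZNF618, AVPI1, EPSTI1, METTL7A, NUAK2, COL15A1, the transcription factor CEBPD and the acute-phase gene SAA2 were among the 30 largest falls at 1.81-fold to 1.96-fold. The others of the 30 belong to gene lists described next or above.

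Interferon-stimulated genes, which cells switch on against viruses, were among those that fell most often. Of 43 tested members 29 fell and 2 rose, with a median of -0.32. IFIT1, IFIT2 and IFIT3, which bind foreign RNA, fell by 0.95, 0.85 and 0.56. IFIT2 read 140.9 and 140.9 at 20% O2 and 81.8 and 73.8 at 1% O2. GBP4, a guanylate-binding protein, read a mean of 11.8 against 4.88, and GBP1 fell by 0.75. TRIM22 fell by 1.18, OASL by 0.86 and HERC5 by 0.62. The chemokine CXCL10, induced by interferon, read 5.75 and 6.24 against 3.25 and 2.76. ISG20 and IRF9 were the 2 that rose, by 0.85 and 0.39. IFITM3 and XAF1 did not pass (0.013 and -0.010).

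Genes of antigen presentation moved both ways. Of 22 tested genes 10 fell (45.5%) and 3 rose (13.6%), where 17.9% of all genes tested fell and 17.4% rose. The class I heavy chains HLA-E and HLA-B rose by 0.22 and 0.17 (HLA-B not with quantile normalization, limma adjusted p = 0.0699), while B2M, their light chain, differed by -0.029. Genes of the class II route fell: CIITA, its master regulator, read 11.7 and 10.5 against 5.43 and 6.39, HLA-DMB 4.63 and 4.57 against 2.04 and 1.55, and HLA-DRA and CD74 fell by 0.81 and 0.41. NLRC5, the class I counterpart of CIITA, fell by 0.81 and the immunoproteasome subunits PSMB9 and PSMB8 by 0.75 and 0.41. HLA genes share sequence, and reads could be split between them by the counting.

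Inflammatory factors moved both ways, with 9 of 24 rising (37.5%) and 8 falling (33.3%) and a median of -0.040. The shares of all genes tested were 17.4% and 17.9%. ICAM1, an adhesion receptor for leukocytes, read 574.2 and 542.3 against 1034 and 1039. IL1B and IL1A rose by 0.81 and 0.73. IL6 read 322.7 and 322.9 against 240.9 and 213.5, and CSF1, the macrophage growth factor, fell by 0.68. IL8, the neutrophil chemokine, read 3536 and 3590 against 3233 and 2978 and fell by 0.20. That call was lost without a variance trend (limma adjusted p = 0.062) and without shSC 1% O2 replicate 2 (log2 -0.14). The enzymes of prostaglandin synthesis differed in direction: PTGS2 rose by 0.29 (not without shSC 1% O2 replicate 1, limma adjusted p = 0.0762) and PTGES, the next enzyme, fell by 1.58.

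Genes of DNA replication fell in 35 of 42 tested members, with 0 rises and a median of -0.33. The replicative helicase fell in all its 6 core subunits, MCM5 by 0.78 (40.1 and 38.6 against 21.3 and 24.3), MCM3 by 0.65, MCM2 by 0.60, MCM4 by 0.50, MCM6 by 0.48 and MCM7 by 0.44. MCM10, which helps to start the helicase, fell by 0.63, and E2F1 and E2F2, which drive such genes, by 0.45 and 0.85. RRM2, the ribonucleotide reductase subunit with the most reads in the list, differed by -0.056 (limma adjusted p = 0.425, and 0.0351 without shSC 1% O2 replicate 2). Of 22 DNA repair genes 15 fell, among them the mismatch gene MSH6 (-0.40) and UNG (-0.48), and 0 rose.

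Most genes of mitosis did not pass, which was also so for all genes tested (8189 of 12645). Of 28 tested 7 fell (25%) and 1 rose (3.57%), with a median of -0.066. Among all genes tested 17.9% fell and 17.4% rose. MKI67, the proliferation marker, read a mean of 738.0 at 20% O2 and 764.3 at 1% O2 (limma adjusted p = 0.432) and CDK1 184.8 and 192.2. PLK1, a kinase of mitotic entry, fell by 0.28 and CDC20 by 0.20, the latter not without shSC 1% O2 replicate 1 (limma adjusted p = 0.0634). UBE2C rose by 0.27. The count of falls was 2 without a variance trend and 11 with quantile normalization. In G1 control CDKN1A, the p21 inhibitor of cyclin-dependent kinases, read 121.5 and 113.3 against 248.6 and 258.5. CCNG2 and CDKN1C rose by 0.70 and 0.69. The D cyclins parted: CCND1 and CCND3 fell by 0.34 and 0.37, and CCND2 rose by 0.35. Shares of cells in each phase were not measured.

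Many mitochondrial genes encoded in the nucleus fell by small amounts. Of 75 tested respiratory chain genes 30 fell and 0 rose, with a median of -0.14. The largest was ATP5G1, a subunit of the ATP synthase ring (-0.54), followed by NDUFS3 and NDUFS5 of complex I (-0.37 and -0.35) and ATP5A1 (-0.31). Of 76 genes of mitochondrial ribosomal proteins 39 fell and 1 rose (median -0.18), with MRPS26 lowest at -0.50. Without shSC 1% O2 replicate 1 the falls numbered 14 and 22, so the counts rest in part on that library. Of 80 genes of cytosolic ribosomal proteins 1 fell and 2 rose, with a median of 0.0059, although 15 fell with quantile normalization and 7 rose without shSC 20% O2 replicate 1. Ribosome biogenesis genes fell in 17 of 29 (median -0.19), with UTP20 at -0.44, BOP1 at -0.33 and NOP2 at -0.36, and NPM1, which has the most reads among them, differed by -0.081 and passed only with quantile normalization (limma adjusted p = 0.000326).

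Genes of lipid synthesis and of redox defence fell more often than they rose. Of 12 fatty acid genes 9 fell and 1 rose, led by FASN, the synthase itself (364.1 and 340.4 against 203.7 and 199.6), and ACACA (-0.58). Of 27 genes of cholesterol synthesis and uptake 12 fell, among them DHCR7 (-0.48), the enzyme of a late step. The 2 that rose, INSIG2 (0.91) and INSIG1 (0.20), encode the proteins that hold back the pathway's activator. Of 21 NRF2 and redox genes 11 fell and 1 rose. NQO1, a quinone reductase, read 216.4 and 215.5 against 123.5 and 127.5, and GSR, which regenerates glutathione, fell by 0.70. TKT and TALDO1 of the pentose phosphate pathway fell by 0.29 each. HMOX1, the heme oxygenase, was the 1 that rose (8.61 and 8.58 against 13.1 and 13.3).

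Amino acid and protein-folding genes rose modestly. Of 22 ATF4-linked genes 12 rose and 1 fell. PHGDH and PSAT1, the early enzymes of serine synthesis, rose by 0.65 and 0.41 and ASNS, which makes asparagine, by 0.58. SLC38A2, the amino acid transporter with the most reads of the list, fell by 0.22. Of 23 genes of folding in the endoplasmic reticulum 11 rose and 2 fell. ERO1L, the oxidase that passes electrons to oxygen as protein disulfide bonds form, rose by 0.81. P4HB, a disulfide isomerase and partner subunit of P4HA1, rose by 0.43 and the chaperone HSPA5 by 0.31, while SDF2L1 fell by 0.73.

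Counts in further lists stand beside the 17.4% of all genes tested that rose and the 17.9% that fell. Among 24 ephrins, semaphorins and their receptors 7 rose and 7 fell, with 3 falls without shSC 1% O2 replicate 1 and 4 rises with no filter on low values. SEMA4B, a membrane semaphorin, rose from a mean of 45.6 to 128, and the ephrin EFNA3 from 1.14 to 3.10, while its relative EFNA1 fell from 6.29 to 3.80. Of 11 genes of immune checkpoints and adenosine 6 rose and 2 fell, with log2 changes from -0.52 to 0.37. Among them NT5E, which makes adenosine, rose by 0.37 and PVR, the poliovirus receptor, by 0.27. CD274, the ligand of PD-1, fell by 0.21. Of 14 BCL2 family genes 3 rose and 3 fell, near the shares of all genes, with BCL2A1, a relative of BCL2, higher by 1.03 and BCL2, the founding survival factor, lower by 0.56. Of 22 immediate early and MAPK feedback genes 8 fell (5 with no filter on low values) and 3 rose, and JUND fell by 0.40 where JUN rose by 0.43. Of 14 NuRD genes, the chromatin complex that holds CHD4, 0 rose and 5 fell (3 without a variance trend), with RBBP4, a histone chaperone, lowest at -0.39. Among long noncoding RNAs NEAT1, the scaffold of paraspeckles, fell by 0.59.

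**Figure D4:**
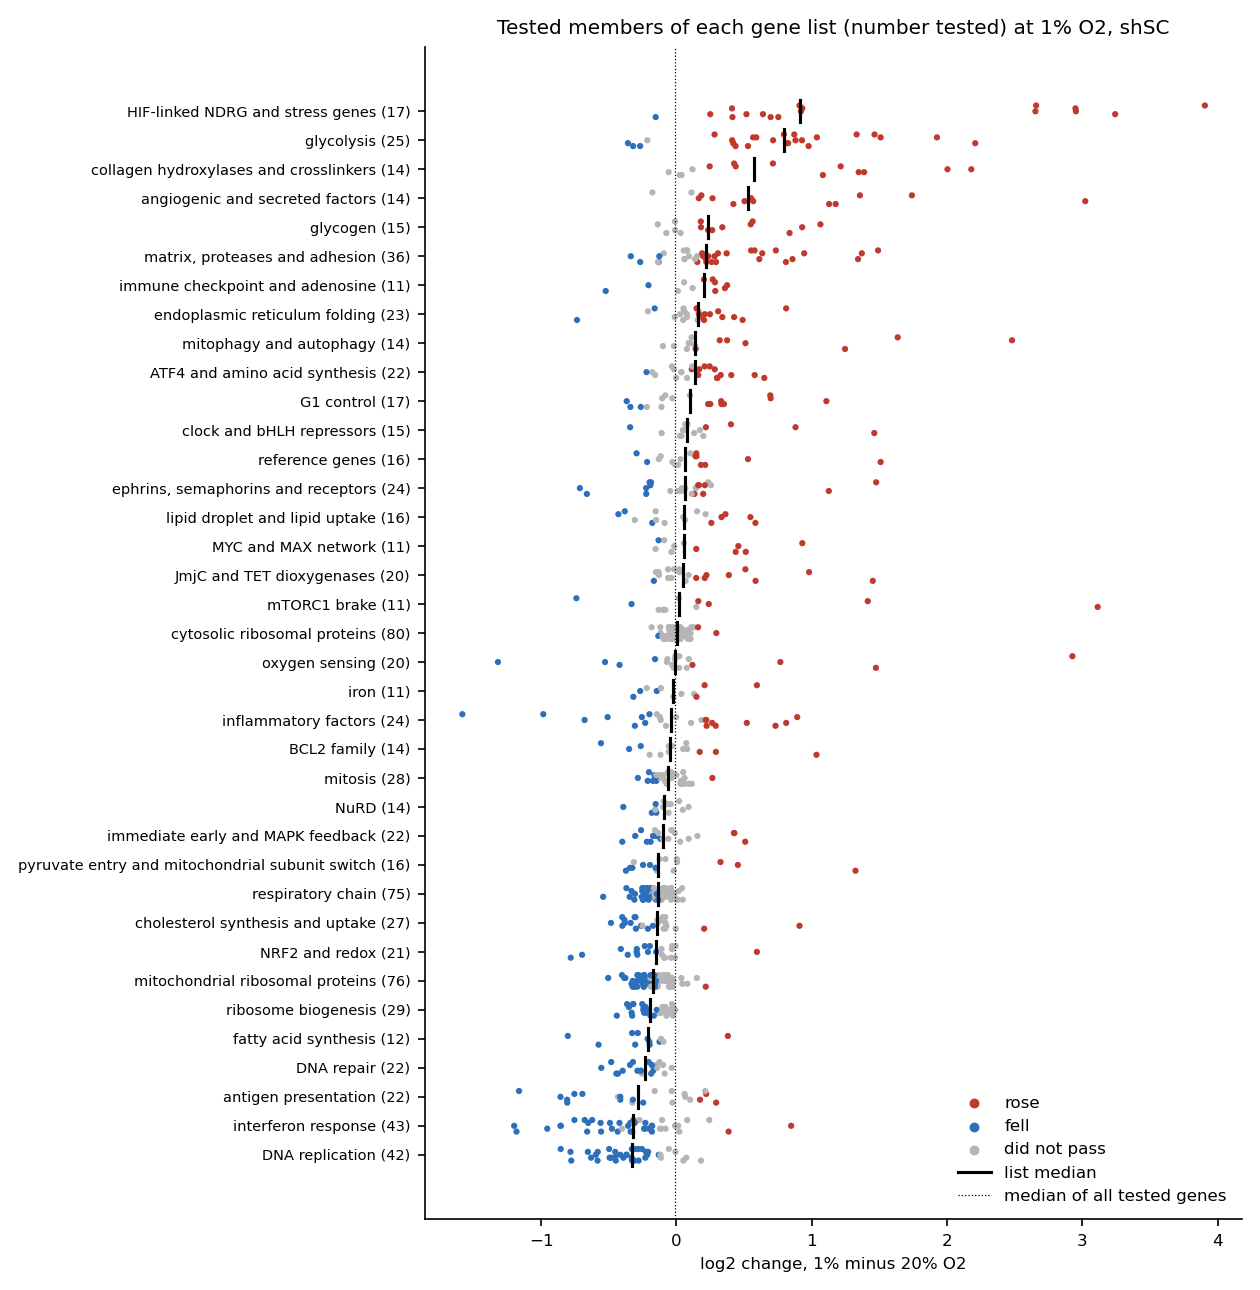
Log2 change at 1% against 20% O2 (x) of each tested gene in lists with at least 10 tested members, ordered by list median (black bar), red where a gene rose, blue where it fell and grey where it did not pass. Medians run from 0.91 for the NDRG and stress genes and 0.79 for glycolysis to -0.32 for the interferon response and -0.33 for DNA replication, around -0.011 for all genes tested.

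Few genes went from silent to expressed. Only 2 genes of the whole table were found by a rule of at most 3 reads over both 20% O2 libraries and at least 10 in each 1% O2 library. PLA2G4D, a phospholipase, had 0 and 1 reads against 22 and 37, a ratio of 50.3 (95% exact counting interval 8.68 to 2019). These reads chose the genes, so the ratios are a description with no test, and their intervals cover counting error only. PAPPA2, a protease that cuts IGF-binding proteins, had 0 and 2 reads against 15 and 21, a ratio of 15.3 (3.95 to 131.5). No gene met the reverse rule. Among the 106 genes raised 2-fold or more, 101 were protein-coding, 2 were long noncoding RNAs and 2 were transcribed pseudogenes by RefSeq, and 1 was unmatched. Of the 12645 genes tested 11810 were protein-coding, 279 long noncoding RNAs, 181 transcribed pseudogenes and 290 unmatched. The make-up of the raised genes was thus near that of all genes tested. In addition, 5 pairs were neighbours among tested genes: SH2D2A with PEAR1, RASSF4 with C10orf10, ANG with RNASE4, LRP2BP with ANKRD37, and FAM115C with LOC154761. ANG and RNASE4 share a promoter region and exons in annotation, so their reads may not be fully separable.

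Cells with the shCHD4 label were held at the same O2 levels, and the comparisons share no library. In them 1552 genes rose (12.3%) and 1351 fell (10.7%). The change with O2 differed between labels in 551 genes by the interaction test (4.36%). That count was 245 without shCHD4 1% O2 replicate 2 and 994 without shSC 20% O2 replicate 1, the extremes of leaving out single libraries, and was 155 without a variance trend and with no filter on low values. Of the 106 genes raised 2-fold or more in shSC cells, 91 rose under the shCHD4 label too, 33 changed by more in shSC cells and 1, STC1, by less. Their median log2 change was 1.29 in shSC cells and 0.96 under the shCHD4 label. Since these genes were chosen for a large change in shSC cells, a smaller median elsewhere is partly built in. So is the excess of genes that changed by more in shSC cells, as the same shSC values enter the interaction. Of the 13 lowered 2-fold or more, 7 fell under the shCHD4 label and 11 changed by more in shSC cells, with the same limit. DIO2 had a mean of 2.07 at both O2 levels under that label, and VIPR1 10.6 and 10.8. The change did not pass the interaction test for the fall of HIF1A (-1.32 in shSC, -1.55 under the shCHD4 label, interaction adjusted p = 0.111 by limma), nor for the rises of PPFIA4 (3.24 and 3.35) and BNIP3L (1.64 and 1.60).

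Of 10 genes with the smallest interaction p among those that changed in shSC cells, several already differed between labels at 20% O2. DDIT4 had a mean of 585.8 in shSC and 37.8 under the shCHD4 label at 20% O2, and 691.5 and 214.6 at 1% O2, so its log2 change was 0.24 and 2.49. ERRFI1, VLDLR, a lipoprotein receptor, and STC1 likewise changed by less in shSC cells (0.64 and 1.49, 0.58 and 1.71, 1.36 and 2.21). CDKN1A, ICAM1, MMP1 and NDRG1 changed by more (1.11 and 0.18, 0.89 and 0.093, 1.49 and 0.29, 3.90 and 3.24). IFIT2 fell by 0.85 in shSC cells and differed by 0.0067 under the shCHD4 label. AMIGO2, an adhesion protein, differed by -0.16 in shSC cells and by 0.50 under the other label, and its shSC call was lost without shSC 20% O2 replicate 2, without shSC 1% O2 replicate 1 and without a variance trend (limma adjusted p 0.0518 to 0.0624). CHD4 RNA differed by -0.098 and -0.029 with O2 under the 2 labels, and its means at 20% O2 were 298.6 and 299.0.

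**Figure D5:**
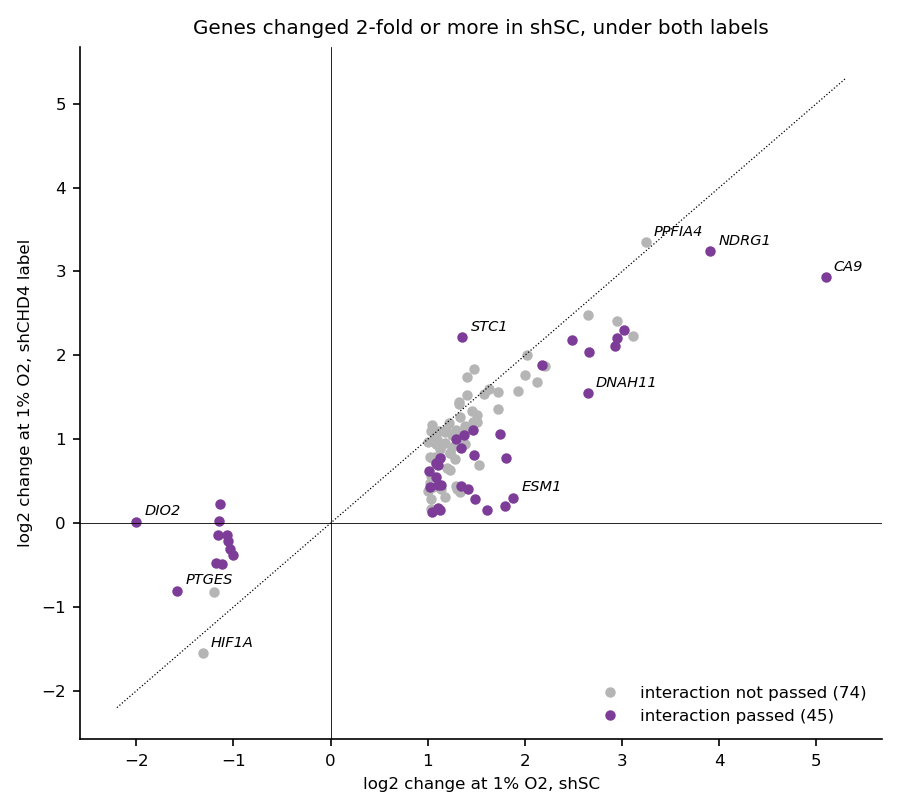
Log2 change at 1% against 20% O2 in shSC cells (x) and under the shCHD4 label (y) for the 119 genes changed 2-fold or more in shSC cells, purple where the interaction passed and grey where it did not. The dotted line marks equal changes, and most purple points lie between it and the horizontal axis, with STC1 above it. The genes were chosen by their change in shSC cells, so this side is partly built in.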

How the data were processed

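Polyadenylated RNA was measured in 8 libraries, 2 for each pair of hairpin label and O2 level. Per the submitters' processing notes the authors worked on hg19 with TopHat, featureCounts, edgeR, Picard 1.127, FastQC 0.11.2 and bcl2fastq 2.17, and the strand setting and gene annotation are not stated there. The deposited signal values are named FPKM, but in each library they are whole read counts divided by 1 factor, whatever the gene length, and 100% of values gave whole reads within 0.01 reads. No total or unassigned row was in the table. Its 19583 rows include 27 names that a spreadsheet turned into dates and 2 repeated names.

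Values plus 0.5 were put on a log2 scale and tested with limma 3.58.1 (R 4.3.3) in the 12645 genes whose mean reached 1, over all 8 libraries with 4 group means and a variance trend, two-sided, with Benjamini-Hochberg adjustment over all genes tested and a threshold of 0.05. Intervals cover 95%. Fold changes are on this log2 scale and are too small for low genes. Calls rest on 4 residual and 13.88 prior degrees of freedom. The steps were tested on simulated data. Alternatives were pseudocounts of 1 and 0.1, no filter or a mean of 5, quantile normalization, DESeq2 size factors, no variance trend, the 4 shSC libraries alone, edgeR 4.0.16 and DESeq2 1.42.0 on the recovered reads, a replicate block and leaving out each library. Genes were named by size of change (the 30 largest each way), by the smallest p and the highest mean within lists, by membership of paralog families, and by the interaction p. The largest changes were taken only from genes that passed, without overlap between the shSC groups and above a minimum mean in the higher group. Further list members were named after their values were seen. The comparison and the 44 gene lists were chosen with earlier results of these data known.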

Additional observations from a re-analysis of the deposited data

Results flagged for a closer look

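The O2 response differed between the shSC and shCHD4 labels in 551 genes by limma's interaction test. For 10 of them, those with the smallest interaction p among genes that changed in shSC cells, the log2 change in shSC cells minus that under the shCHD4 label was as follows. It was -2.25 for DDIT4, -1.13 for VLDLR, -0.86 for IFIT2, -0.86 for STC1, -0.85 for ERRFI1 and -0.66 for AMIGO2. It was 1.20 for MMP1, 0.93 for CDKN1A, 0.80 for ICAM1 and 0.67 for NDRG1. For IFIT2 and AMIGO2 the negative sign comes with a negative log2 change in shSC cells, -0.85 and -0.16, beside 0.0067 and 0.50 under the shCHD4 label. CHD4 RNA had means of 298.6 and 299.0 at 20% O2 under the 2 labels, and the part of the hairpin in these differences was not tested.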

How the results depend on the processing

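There were 19 alternatives. The difference between labels cannot be had from the 4 shSC libraries alone, and genes below a stricter filter have no value under it. Falls of 2-fold or more numbered 13, and 26 with a pseudocount of 0.1, 29 with edgeR, 27 with DESeq2 and 13 to 21 with a library left out. Rises of 2-fold or more numbered 106, and 65 with a filter at a mean of 5, which tests fewer genes. Of all sizes, 2197 genes rose and 2259 fell. With DESeq2 on the recovered reads of all 8 libraries 1831 rose and 1516 fell. Without a variance trend 1850 rose and 1792 fell. Genes that fell numbered 2259, and 1387 to 2180 with a library left out, lowest without shSC 1% O2 replicate 1. Genes whose O2 response differed between labels numbered 551, and 155 with no filter, 155 without a variance trend and 245 to 994 with a library left out, lowest without shCHD4 1% O2 replicate 2 and highest without shSC 20% O2 replicate 1. The cause was not tested. The 60 largest changes kept their calls wherever they were tested. The deviations of same-numbered libraries correlated at -0.121 to 0.124. Such weak values cannot decide whether replicate numbers pair these libraries, and the sources used here do not say. With the number as a replicate block 2166 genes rose, 2204 fell, 106 rose and 13 fell 2-fold or more, and 536 differed between labels. Among lists, matrix genes that fell numbered 2 with no filter on low values in place of 4, and ATF4-linked genes that fell 3 with edgeR in place of 1. Genes with few reads, such as CA9 at 20% O2, limit the precision of their folds.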
